A study of Rattus norvegicus with 2 samples.

Results

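The genes described here encode cytokine receptors (Il1r1, Il1r2, Il6r, Il6st and Ifngr1), the signal transducer Stat3, the transcription factor Irf1 and the interferon-induced Mx proteins (Mx1 and Mx2), as measured in small mesenteric arteries of rats with portal hypertension. Members were all probe sets whose single gene symbol in the platform annotation was 1 of these 9 symbols, which gave 14 of the 7006 probe sets with a single symbol, or 9 of 4736 named genes. Ifngr1, Il1r2 and Il6r were selected on their signal ratio between the same pools, so their values are a description, and the other 6 genes were also chosen with results of these data known. The portal hypertension group was 1 pool of total RNA from 20 rats in which the portal vein had been partly ligated, which raises the venous pressure before the liver. The sham group was 1 pool of total RNA from 20 sham-operated control rats. Strain, age, sex and time after the operation were not found in the labels. An Affymetrix RG_U34A rat array was hybridised once per pool. With no replicates there was no test, every ratio compares these pools only, and precision is limited by having 1 array a group.

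Interleukin-1 acts through the signalling receptor IL1R1, while IL1R2 binds the same cytokine without signalling and so acts as a decoy. Interleukin-6 binds the alpha chain IL6R, and the complex recruits gp130, the product of Il6st. The gp130 chain is shared by receptors of the interleukin-6 family and activates STAT3 through JAK kinases. Interferon gamma binds IFNGR1, and type I interferons bind a separate receptor that contains IFNAR1. Interferon signals reach interferon-stimulated response elements and gamma-activated sequences in promoters through STAT and IRF proteins, and Irf1 and the antiviral GTPase gene Mx1 are classic targets. In the vessel wall such signals come from and act on endothelium, smooth muscle and resident immune cells.

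Promoter sequences are shown for Irf1, the member whose window holds a gamma-activated sequence, and for Mx1, the member with the highest ratio. Irf7, Gbp2 and Rsad2, interferon-induced genes measured on the same arrays, are added as examples of the response element. The sequences are from RefSeq on the rat assembly GRCr8 and read 5′ to 3′ on the strand of the gene. They end 1 base before the annotated start for Irf1, Mx1 and Gbp2, 11 bases before it for Irf7 and 81 bases before it for Rsad2. Capitals mark matches to GAAANNGAA on either strand, the core of the interferon-stimulated response element, or to TTCNNNGAA, the gamma-activated sequence, which reads the same on both strands. No printed matches overlap.
Irf1, chr10:38417685-38417934, plus strand: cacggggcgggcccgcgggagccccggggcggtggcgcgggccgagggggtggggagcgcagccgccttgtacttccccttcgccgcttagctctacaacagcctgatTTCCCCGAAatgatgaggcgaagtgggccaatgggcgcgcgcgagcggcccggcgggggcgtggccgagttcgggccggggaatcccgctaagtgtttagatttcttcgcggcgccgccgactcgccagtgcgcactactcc
Mx1, chr11:50294607-50294856, minus strand: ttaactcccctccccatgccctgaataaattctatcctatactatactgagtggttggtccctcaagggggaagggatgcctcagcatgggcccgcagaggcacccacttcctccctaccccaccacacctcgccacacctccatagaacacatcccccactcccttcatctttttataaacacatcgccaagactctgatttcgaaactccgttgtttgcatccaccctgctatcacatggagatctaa
Irf7, chr1:205800034-205800153, minus strand: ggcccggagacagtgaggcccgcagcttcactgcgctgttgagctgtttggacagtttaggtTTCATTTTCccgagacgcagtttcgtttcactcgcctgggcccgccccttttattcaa
Gbp2, chr2:234005607-234005726, plus strand: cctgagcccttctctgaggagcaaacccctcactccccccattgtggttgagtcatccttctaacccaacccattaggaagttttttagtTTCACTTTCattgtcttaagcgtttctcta
Rsad2, chr6:48788201-48788320, minus strand: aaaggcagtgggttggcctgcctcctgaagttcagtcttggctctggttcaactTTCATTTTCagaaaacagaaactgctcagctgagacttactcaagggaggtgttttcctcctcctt

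The Irf1 match to the gamma-activated sequence began 142 bases before the start. The matches to the response element began 68 bases before the start in Irf7, 30 in Gbp2 and 146 in Rsad2, counted along the strand of the gene. Among all 33469 promoter windows of 250 bases, 8.12% held GAAANNGAA and 7.67% held TTCNNNGAA. Promoter entries were found for 7 of the 9 member genes, all but Il1r2 and Mx2. Of these 7, Il6st held GAAANNGAA and Irf1 held TTCNNNGAA, and the Mx1 window held neither string of letters. The interferon response list used below was fixed at 41 genes, of which 19 were on the array. Windows were searched for its genes with a promoter entry, whether on the array or not. Of these 33 windows of 32 genes, 22 held GAAANNGAA and 10 held TTCNNNGAA. A match describes the letters of the window and is no measured binding site.

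A signal of 330.9 intensity units, below which 40 percent of the non-control values of the arrays fall, was set as a floor, because no detection calls were used. Of the 8740 probe sets without controls, 36.8% lay under the floor in both pools and 4960 lay above it in both, which is called measured below. Of the 14 member probe sets, 8 were measured, 1 was above the floor in the sham pool only and 5 were under the floor in both. All log2 ratios are portal hypertension over sham. Over all measured probe sets their median was -0.02 and their SD 0.35. The SD was 0.38 for the 2777 measured probe sets whose geometric mean signal was under 2000, the range that held 7 of the 8 measured member probe sets. This limit of 2000 was chosen after the values were seen. Around the mean of their gene, measured probe sets had an SD of 0.30 (1801 probe sets of 789 genes). Fewer cells of a type and less RNA per cell cannot be told apart in pooled tissue.

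Mx1 was 1.63-fold higher in the portal hypertension pool, Il6r was 1.42-fold higher and Mx2 1.18-fold higher. Ifngr1 was 1.57-fold lower and Il1r2 1.52-fold lower. Irf1 was not settled, because its probe sets went opposite ways, and Il1r1 was under the floor in both pools. At 1.5-fold or more, 1 of the 8 measured member probe sets was higher, against 3.1% of all measured probe sets, and 2 were lower, against 5.38%. Among measured probe sets with a mean signal under 2000, 3.75% were at least 1.5-fold higher and 7.24% lower. Both lower ones among the members, Ifngr1 and Il1r2, were among the genes selected on their ratios, so nothing is read from that count. Leaving out the 3 picked genes left 5 measured probe sets of 4 genes, of which 1 was at least 1.5-fold higher and 0 were lower. At 2-fold or more, 0 member probe sets were higher or lower, against 0.444% and 0.907% of all measured probe sets.

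**Figure D1:**
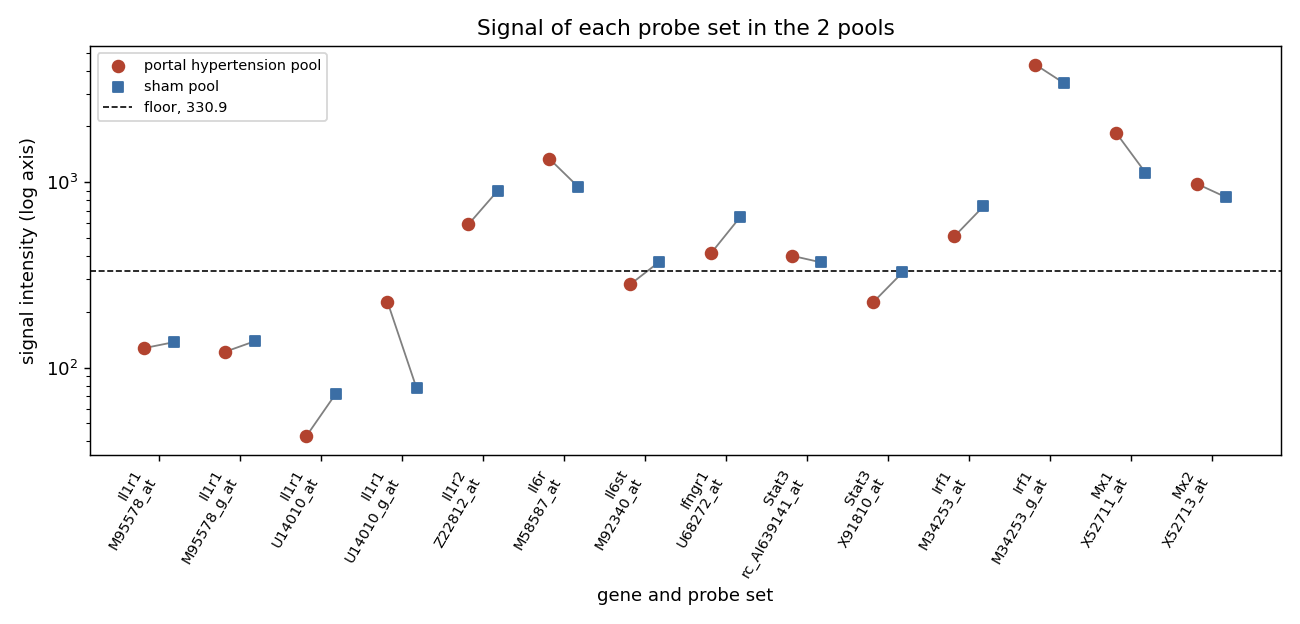
Signal intensity (log axis) of the 14 member probe sets, named below the axis, in the portal hypertension pool (red circles, left of each pair) and the sham pool (blue squares, right), with the floor of 330.9 as a dashed line. Mx1 and Il6r stood higher in the portal hypertension pool, Ifngr1 and Il1r2 lower, and the 4 Il1r1 probe sets lay under the floor. Heights of different probe sets are not comparable.

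Il1r1, the signalling receptor for interleukin-1, gave signals of 127.5, 121.9, 42.7 and 227.3 on its 4 probe sets in the portal hypertension pool. In the sham pool the same probe sets gave 137.1, 138.7, 72 and 77.6. All of these lay under the floor, so no ratio is given. Il1r2, the decoy receptor, had a signal of 592.1 in the portal hypertension pool and 897.8 in the sham pool, a log2 ratio of -0.60. A ratio this low or lower was found for about 4.86% of all measured probe sets. Il1r2 was selected on its ratio, so this rank is a description. The size of the Il1r2 ratio depended on the floor, since it came to -0.013 when the floor was raised to the 60th percentile. Its call at 1.5-fold ended also after quantile normalization (-0.53), after a loess (-0.53), after median centring (-0.58) and with no floor (-0.56).

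Il6r, the chain that binds interleukin-6, had a signal of 1339.3 in the portal hypertension pool and 940.9 in the sham pool, a log2 ratio of 0.51. Of all measured probe sets, 95.2% had a lower ratio. Il6r was selected on its ratio, so this rank is a description. Il6st, the gp130 chain shared by receptors of this family, had 281.5 in the portal hypertension pool and 372.9 in the sham pool. The signal in the portal hypertension pool was under the floor, so Il6st was at least 1.13-fold lower there. The alpha chain and the shared chain lay on opposite sides of equality, each on a single probe set. The bound for Il6st, a log2 ratio of -0.17, was smaller than the SD between probe sets of a gene. Because Il6r was also picked for its ratio, nothing is read from this contrast.

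Ifngr1, the chain that binds interferon gamma, had a signal of 415.9 in the portal hypertension pool and 652.3 in the sham pool. Its log2 ratio was -0.65, and 3.89% of all measured probe sets had a lower one. Ifngr1 was selected on its ratio, so this rank is a description. After quantile normalization the ratio was -0.58, just inside 1.5-fold. With the floor at the 60th percentile its signal was under the floor in both pools, so no ratio was left.

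Stat3, the transcription factor that gp130 receptors activate, had a signal of 400.9 in the portal hypertension pool and 369.3 in the sham pool on its measured probe set. The log2 ratio of 0.12 was smaller than the SD between probe sets of a gene. The other Stat3 probe set gave 225.5 in the portal hypertension pool and 326 in the sham pool, under the floor in both. With the floor at the 20th percentile that probe set entered too, and the Stat3 value turned to -0.21. The direction for Stat3 was thus not settled.

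Irf1, an interferon-induced transcription factor, had 2 measured probe sets from the same sequence record. The brighter gave a signal of 4317.6 in the portal hypertension pool and 3412.7 in the sham pool, a log2 ratio of 0.34. The dimmer gave 509.8 in the portal hypertension pool and 741.4 in the sham pool, a log2 ratio of -0.54. These ratios were 0.88 apart. Among all 470 such pairs of measured probe sets from a shared record, the median gap was 0.21, and 18 pairs (3.83%) were at least as far apart as the Irf1 pair. The ratios had opposite signs in 170 pairs (36.2%).

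**Figure D2:**
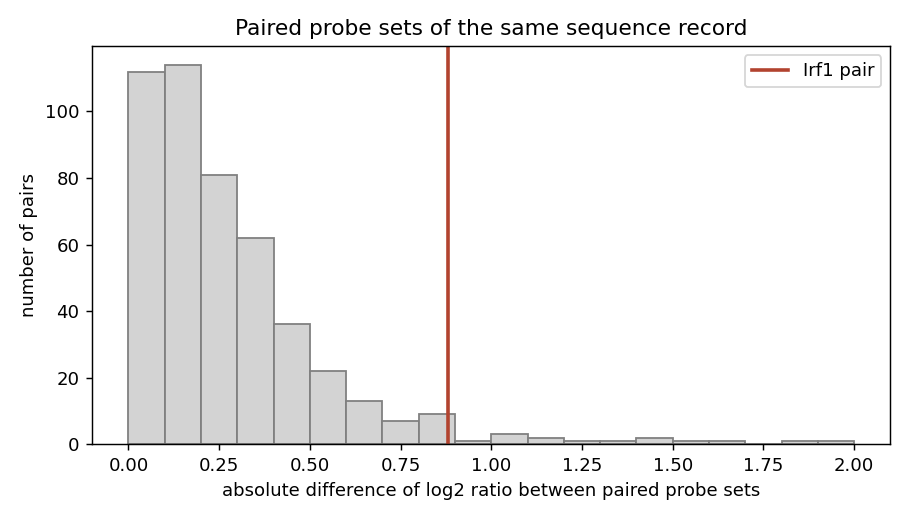
Histogram of the absolute difference in log2 ratio (x axis) between paired probe sets of the same sequence record, as the number of pairs in steps of 0.1 (y axis). The Irf1 pair (red line, 0.88) lay in the upper tail, with 18 of 470 pairs at least as far apart.

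Mx1, which encodes an interferon-induced antiviral GTPase, had a signal of 1843.4 in the portal hypertension pool and 1127.5 in the sham pool. Its log2 ratio was 0.71, and 98.0% of all measured probe sets had a lower one. The ratio stayed between 0.69 and 0.76 under the 9 alternative settings. Other floors and choices among probe sets left it at 0.71, since Mx1 has 1 probe set, above each floor in both pools. Those settings could not have moved it. Mx2, a second gene of this family that RefSeq also lists as Mx3, had 979.1 in the portal hypertension pool and 828.5 in the sham pool, a log2 ratio of 0.24. Both Mx genes were higher in the portal hypertension pool, Mx2 by less than the SD between probe sets of a gene. Whether the probes tell these related genes apart was not tested.

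**Figure D3:**
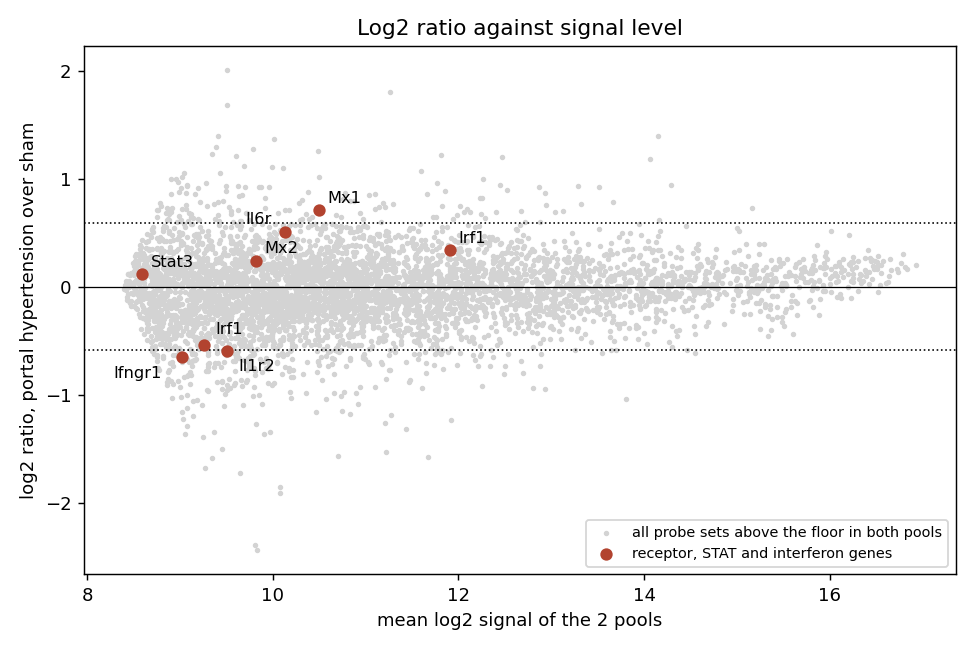
Log2 ratio of portal hypertension over sham (y axis) against the mean log2 signal of both pools (x axis) for the 4960 measured probe sets (grey) and the 8 measured member probe sets (red, named), with dotted lines at 1.5-fold. Mx1 lay above the upper line and Ifngr1 and Il1r2 below the lower one, in a range of signal where grey points also scatter past both lines.

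The surrounding pathway was described with lists of ligands, other receptors, JAK and STAT genes, interferon response genes, interleukin-1 signalling and STAT3 targets. A gene's value was the median log2 ratio over its probe sets above the floor in at least 1 pool. Over all 3351 genes with a value the median was -0.02, 46.8% of ratios were above 0 and 53.2% below. A gain of 1.5-fold or more was found for 3.13% of these genes and a loss of that size for 5.04%. The medians of the ligand, other receptor, JAK and STAT and STAT3 target lists below each changed sign under at least 1 of the 9 alternative settings, with lowest and highest values of -0.20 and 0.06 for ligands, -0.12 and 0.21 for other receptors, -0.09 and 0.09 for JAK and STAT genes and -0.09 and 0.13 for STAT3 targets.

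Many genes of the cytokines themselves were under the floor. Of 22 ligand genes on the array, 11 were under the floor in both pools, among them Il6, Ifng, Ifnb1 and Tnf. Ifnb1, the interferon beta gene, had a signal of 101.9 in the portal hypertension pool and 79.2 in the sham pool. Il1b, the interleukin-1 beta gene, had 623 in the portal hypertension pool and 675 in the sham pool on its brightest probe set, and its log2 ratio as a gene was -0.14. Over the 11 ligand genes with a value the median was 0.04, with 6 above 0 and 5 below. The largest ratios among them were 0.65 for the ciliary neurotrophic factor gene Cntf, -0.43 for Il15, -0.37 for the macrophage colony-stimulating factor gene Csf1 and -0.36 for the cardiotrophin gene Ctf1. Cntf, with 540.9 in the portal hypertension pool and 344.9 in the sham pool, was the 1 ligand gene at least 1.5-fold higher, and 0 were lower by that much.

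Other cytokine receptors went both ways. Of 19 genes on the array 12 had a value, with 5 above 0, 7 below and a median of -0.11, and 0 reached 1.5-fold. Ifnar1, a chain of the type I interferon receptor, had a signal of 754.8 in the portal hypertension pool and 527.2 in the sham pool, a log2 ratio of 0.52. That is the opposite direction to Ifngr1 and the largest ratio of this list. Ifngr1 was selected on its ratio and Ifnar1 was named for the size of its own, so nothing is read from this contrast. Il2rb and Il4r, which encode interleukin-2 and interleukin-4 receptor chains, had 0.35 each, and the leptin receptor gene Lepr -0.34. Il1rap, the accessory chain that IL1R1 needs to signal, had -0.19, with 578 in the portal hypertension pool and 650.1 in the sham pool on its measured probe set. The median of this list turned to 0.21 when probe sets marked as shared were left out.

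Among JAK and STAT genes and their inhibitors, 11 of 16 genes on the array had a value, 5 above 0 and 6 below, with a median of -0.06. Ptpn6, which encodes a phosphatase of blood cells that switches off cytokine receptors, had a signal of 992.7 in the portal hypertension pool and 479.6 in the sham pool. Its log2 ratio of 1.05, on a probe set marked as shared, was the highest of all lists of the pathway. The other Ptpn6 probe set was under the floor in both pools. Ptpn11, a related phosphatase gene, had 0.56 on the 1 of its 5 probe sets that was measured. Stat2, a transducer of type I interferon signals, had 1204.5 in the portal hypertension pool and 823.1 in the sham pool, a log2 ratio of 0.55. Stat5b had -0.41. Stat5a was the 1 gene at least 1.5-fold lower, with 284 in the portal hypertension pool and 569.1 in the sham pool on a probe set above the floor in the sham pool only. Socs3, the feedback inhibitor that STAT3 induces, had 139.7 in the portal hypertension pool and 176.9 in the sham pool, under the floor in both.

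Genes of the interferon response list were mostly a little higher in the portal hypertension pool. Their median log2 ratio was smaller than the SD between probe sets of a gene. Of 19 genes on the array 18 had a value, with 14 above 0 and 4 below and a median of 0.14, which lay between 0.12 and 0.21 under the 9 alternative settings. Past 1.5-fold there was 1 gene in each direction. Irf7, the transcription factor that amplifies type I interferon responses, had 2498.1 in the portal hypertension pool and 1623 in the sham pool on its brighter probe set. Its probe sets agreed in direction, with log2 ratios of 0.62 and 0.60. The chemokine gene Cxcl10 had 0.48 and the guanylate-binding protein gene Gbp2, whose promoter is shown above, 0.46. Irf3, a transcription factor that is present before any interferon signal, had a log2 ratio of -0.64. Its signal was 691.8 in the portal hypertension pool and 1081.6 in the sham pool, on a probe set marked as shared. The other Irf3 probe set gave 234.3 in the portal hypertension pool and 187.3 in the sham pool, under the floor in both.

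By their value as a gene, other genes of the same list lay nearer to equality. Rsad2, an antiviral gene whose promoter is shown above, had 18058.9 in the portal hypertension pool and 16530.2 in the sham pool on its brighter probe set, and 0.15 as a gene. B2m, the light chain of class I antigen presentation, had a log2 ratio of 0.03. The immunoproteasome subunit gene Psmb9 and the invariant chain gene Cd74 had 0.40 and 0.36, while the peptide transporter gene Tap1 had -0.21. The measured Cd74 probe sets had 0.32, 0.60 and 0.36. These 5 genes were named after their values were seen. Beside this list, 4 of 5 macrophage and myeloid markers with a value were above 0, as were 4 of 5 mast cell, 8 of 10 adipocyte and 6 of 7 fibroblast markers, while 6 of 7 lymphocyte markers were below 0. Their part in it was not tested.

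**Figure D4:**
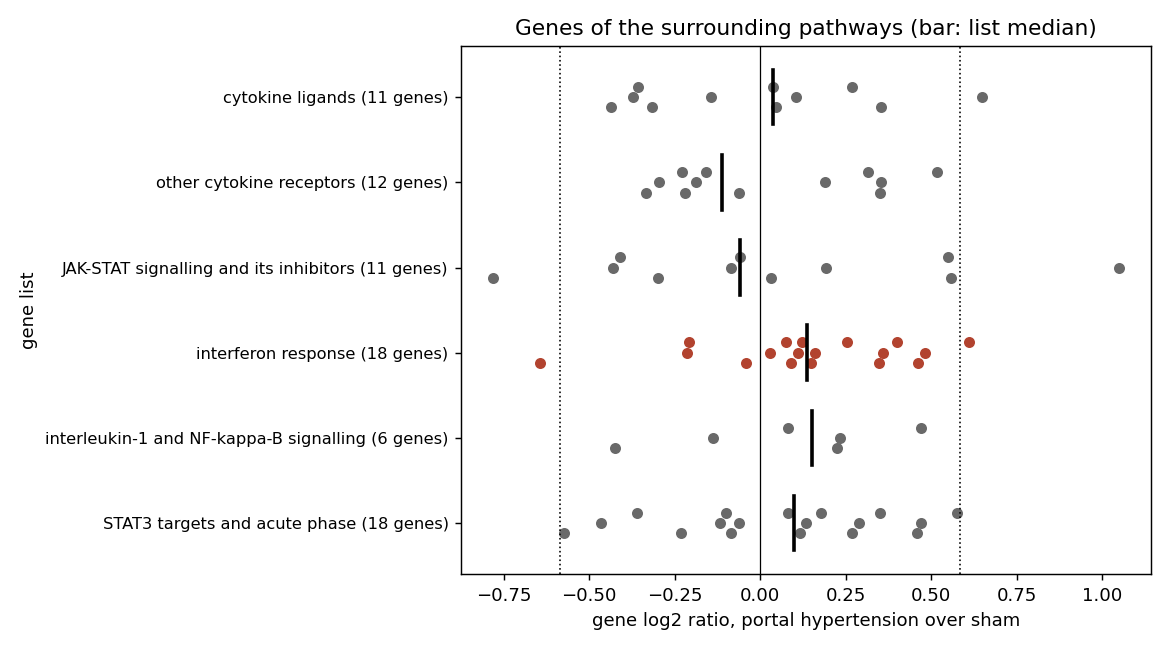
Gene log2 ratios of portal hypertension over sham (x axis) in the 6 pathway lists (y axis, number of genes with a value in brackets), each point 1 gene, black bars the list medians, dotted lines 1.5-fold. In the interferon response list (red) 14 of 18 genes lay above 0 and 4 below, with Irf3 past the lower line, and every other list also held genes on both sides of 0.

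Genes of interleukin-1 and NF-kappa-B signalling were few on the array. All 6 had a value, 4 above 0 and 2 below, with a median of 0.15 and 0 at 1.5-fold. Nfkbia, the inhibitor that NF-kappa-B itself induces, had 3449.1 in the portal hypertension pool and 2365.6 in the sham pool on 1 probe set and a log2 ratio of 0.47 as a gene. Nfkb1 and the adaptor gene Traf2 had 0.23 and 0.22, and the lipopolysaccharide-binding protein gene Lbp had -0.42. Among STAT3 targets and acute phase genes, 18 of 21 on the array had a value, 10 above 0 and 8 below, with a median of 0.10 and 0 at 1.5-fold. The haptoglobin gene Hp had 1345 in the portal hypertension pool and 903.3 in the sham pool, a log2 ratio of 0.57, and the ceruloplasmin gene Cp had 0.46. Bcl2l1, which encodes a protein that blocks cell death, had -0.47, and the transcription factor gene Cebpd -0.36, with measured probe sets at -0.85 and 0.13.

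The tissue label was checked with marker genes. All 8 smooth muscle and pericyte genes on the array had a value, with Tagln at 99066.7 in the portal hypertension pool and 88269.8 in the sham pool on 1 probe set. Markers of immune and other cells differed between the pools beside the results above. The summed signals below add all measured probe sets of a list, so the brightest weigh most and genes with several count repeatedly. They are no measure of cell number. Of 7 macrophage and myeloid genes on the array 5 had a value and 4 were above 0, with a summed signal of 57097.3 in the portal hypertension pool and 46465.2 in the sham pool over measured probe sets and a median of 0.46, while Csf1r and Itgam were under the floor. Of 12 lymphocyte genes 7 had a value and 6 were below 0, while Cd8a, Cd2, Cd5, Cd28 and Prf1 were under the floor. Their summed signals were 4469.6 in the portal hypertension pool and 5239.8 in the sham pool. The lymphocyte median of -0.48 was the value of Ptprc, whose measured probe sets disagreed, with log2 ratios of -0.48, -0.63 and 0.995. Cd3d and Cd79b rested on probe sets above the floor in the sham pool only. Under the 9 alternative settings the lymphocyte median lay between -0.53 and -0.19. Of 4 neutrophil genes, 2 had a value, 1 on each side of 0, with summed signals of 3299.3 in the portal hypertension pool and 3103.3 in the sham pool. Endothelial genes had 5 of 6 values below 0 and a median of -0.19, with Kdr, Vwf and Sele under the floor. Their summed signals were 10258.3 in the portal hypertension pool and 11704 in the sham pool. Past 1.5-fold, 1 endothelial gene was higher, Edn1 at 0.62, and 2 were lower, Icam2 at -1.13 and Nos3 at -0.78. The measured Nos3 probe sets disagreed, with log2 ratios of -0.78, -1.20 and 0.25. Of 7 mast cell genes 5 had a value and 4 were above 0, with summed signals of 17481.9 in the portal hypertension pool and 10371.5 in the sham pool and a median of 0.16. Among the mast cell protease genes, Cma1 and Cpa3 had log2 ratios of 1.20 and 0.82, Tpsab1 had 0.10 and Tpsb2 had -0.37. Kit and Ms4a2 were under the floor. Of 11 adipocyte genes 10 had a value, 8 were above 0 and 2 at least 1.5-fold higher, with summed signals of 151855 in the portal hypertension pool and 111274 in the sham pool, a median of 0.31 and Plin1 under the floor. Within these sums 1 Scd probe set gave 29482.1 in the portal hypertension pool and 11225.1 in the sham pool. All 7 fibroblast and adventitia genes had a value and 6 were above 0, with summed signals of 605492 in the portal hypertension pool and 557292 in the sham pool and a median of 0.21. The 8 smooth muscle and pericyte genes had 3 values above 0 and 5 below, with summed signals of 641141 in the portal hypertension pool and 655629 in the sham pool. The part of these cell types in the ratios of the receptor and interferon genes was not tested.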

How the data were processed

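Total RNA of small mesenteric arteries was pooled over 20 rats in each group, per the labels. The authors deposited a linear signal intensity for each probe set on each array. The software, scaling and background correction behind it are not given in the sources used. Per the file headers, both arrays were RG_U34A. The fluidics module was 1 for the portal hypertension array and 2 for the sham array, and labelled cRNA was noted, with a question mark, as 12.5 µg and 17 µg in that order. Module, cRNA amount and operation cannot be told apart.

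Values were used as deposited. The 59 control probe sets were set apart, signals under 330.9 (40th percentile) were raised to it, and log2 ratios were taken with Python 3.11.15 and pandas 2.3.3. The platform annotation gave 7018 probe sets 1 gene symbol, 308 several and 1473 none; the RefSeq table of GRCr8 held all 9 member gene identifiers under the same symbols. Scripts were tested on simulated data.

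Members, lists and settings were chosen with earlier results of these data known. Named genes were all members and, per pathway list, up to 4 genes with a measured probe set and the largest absolute ratio. Other genes, named as context, were chosen after their values were seen. The 9 alternatives were quantile normalization, a loess of ratio on level, median centring, floors at the 20th and 60th percentiles, no floor with 50 added to each value, the probe set of highest level, measured probe sets only, and leaving out probe sets whose suffix marks them as shared.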

Additional observations from a re-analysis of the deposited data

How the results depend on the processing

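The alternatives kept the direction of Il1r2, Il6r, Il6st, Ifngr1, Mx1 and Mx2 wherever they gave a value. Most of them could not have turned it. Each of these genes has 1 probe set, so choices among probe sets cannot change the sign. Nor can another floor, or the same amount added to both signals, reverse which pool is higher. Only quantile normalization, the loess and median centring could have turned a direction, and they did not. The count of member probe sets at least 1.5-fold lower, 2 as reported, was 0 after quantile normalization and at a floor of the 60th percentile, and 1 after the loess, after median centring and with no floor. At that higher floor the Il1r2 ratio was -0.013. Stat3 turned to -0.21 with the floor at the 20th percentile, where its other probe set entered. Irf1, at -0.10 as a gene, was 0.34 at the higher floor or from its brightest probe set, and -0.54 without shared probe sets, since each of these keeps only 1 of its probe sets.

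Over all probe sets, 154 were at least 1.5-fold higher and 267 lower, and 22 and 45 at 2-fold. With the floor at the 20th percentile these counts were 430, 598, 132 and 169, and at the 60th percentile 69, 110, 8 and 14. With shared probe sets left out, 95 were at least 1.5-fold higher, 169 at least 1.5-fold lower and 23 at least 2-fold lower, out of fewer probe sets. The median of other cytokine receptors, -0.11 as reported, was 0.21 with shared probe sets left out. Other list medians also changed sign. That of cytokine ligands, 0.04 as reported, was below 0 under 4 of 9 settings and reached -0.20 at the 60th percentile floor. That of JAK and STAT genes, -0.06 as reported, was above 0 under 2 of 9, at 0.09 with the same floor and 0.03 from measured probe sets only. That of STAT3 targets, 0.10 as reported, was -0.09 with the same floor. The cause was not tested. Signal near the floor limits what Stat3, Il6st and Ifngr1 can show, and Il1r1 gave no value as reported. No paired analysis was possible because each group is 1 pooled array.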
